A study of Homo sapiens with 2 samples.

Results

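The genes described here are 9 of the 19826 genes counted in single cells of MDA-MB-231, an established human triple-negative breast cancer line, grown as mammospheres without or with metformin, a biguanide drug. They are the class II antigen presentation genes CD74, HLA-DRA, HLA-DRB1, HLA-DRB5, HLA-DPA1, HLA-DPB1, HLA-DMA, HLA-DMB and CIITA. They were chosen by name because they were higher in the 2 mM metformin library of these same counts, so the differences between doses are given as a description with no test. Cells first spent 30 days attached, in high-glucose medium with 0 mM or 2 mM metformin, and then 10 days as floating spheres on low-attachment plates, before they were separated with trypsin and EDTA. The 0 mM sample carries the title Wildtype, which here names the culture without metformin and not a genotype. Each dose has 1 library, so a difference between libraries cannot be told apart from a difference between cultures, and every interval below covers counting error only.

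Class II molecules are pairs of an alpha and a beta chain that show peptides from the endosomal pathway to CD4+ T cells. CD74, the invariant chain, fills the groove of newly made pairs and guides them to endosomes, where HLA-DM helps to exchange its last fragment for a peptide. The genes are known from professional antigen-presenting cells, and many other cells, tumour cells included, can be brought to express them by interferon gamma. CIITA, a co-activator that does not bind DNA itself, is recruited by factors bound to the short W/S, X and Y boxes of these promoters.

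Promoter sequences of members are shown as background. Whether letters there have a part in the difference between the libraries was not tested. RefSeq's table (GRCh38.p14) held the 300 bases around the start of 7 of the 9 members. The letters searched on both strands were CCAAT, the core of the Y box (ATTGG on the other strand), and AGCAAC, taken as the start of an X box, with CTGATGAT added after the sequences had been seen. The windows below are 5′ to 3′ on the gene's strand, with matches in capitals. In HLA-DRB1 and HLA-DRB5 the matches to AGCAAC and CTGATGAT share 1 base. The windows lie at chr6:32589870-32589947 on the minus strand for HLA-DRB1, chr6:32530353-32530430 on the minus strand for HLA-DRB5, chr6:32953153-32953230 on the minus strand for HLA-DMA, chr6:32941059-32941136 on the minus strand for HLA-DMB, chr6:33075870-33075939 on the plus strand for HLA-DPB1 and chr5:150412939-150413008 on the minus strand for CD74.
HLA-DRB1: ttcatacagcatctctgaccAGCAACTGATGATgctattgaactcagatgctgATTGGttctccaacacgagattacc
HLA-DRB5: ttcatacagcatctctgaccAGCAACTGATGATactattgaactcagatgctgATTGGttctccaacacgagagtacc
HLA-DMA: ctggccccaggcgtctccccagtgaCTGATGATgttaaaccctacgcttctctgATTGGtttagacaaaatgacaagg
HLA-DMB: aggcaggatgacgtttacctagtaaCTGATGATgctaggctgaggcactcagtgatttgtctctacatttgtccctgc
HLA-DPB1: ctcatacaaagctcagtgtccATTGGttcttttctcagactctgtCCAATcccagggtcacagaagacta
CD74: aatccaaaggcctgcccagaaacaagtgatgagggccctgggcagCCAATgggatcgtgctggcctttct

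CCAAT was found in 6 of the 7 matched members, beside 34.6% of the 35116 promoters of the same length. AGCAAC was found in 4 of 7, beside 12.8% of all promoters. Members are counted as genes and promoters as entries, and the 7 members had 8 entries. HLA-DPA1 had more than 1 entry, and only 1 of them held AGCAAC. In HLA-DMA the match to AGCAAC lay at an offset of -216 from the start, outside the window shown. CTGATGAT was found in HLA-DRB1, HLA-DRB5, HLA-DMA and HLA-DMB, and in 239 promoters in all (0.681%). In HLA-DRB1 and HLA-DRB5 it was followed by ATTGG after 20 bases, and in HLA-DMA after 21 bases. The HLA-DRB1 and HLA-DRB5 windows differ at 2 of 78 bases. These are matches of letters and not measured binding sites, and the counts themselves were mapped to hg19, with no coordinate of theirs used here.

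All 1000 barcodes at 0 mM and 991 at 2 mM had enough transcripts to be kept, and held 4403045 and 3264343 unique molecular identifiers (UMIs, each standing for 1 captured transcript). The median cell held 3386 UMIs at 0 mM and 2509 at 2 mM, so shares of cells are compared after thinning each cell to 1000 UMIs. No cell barcode occurred in both libraries. Mitochondrial transcripts made up 5.49% and 5.38% of UMIs. The label was checked against markers of this line, which is known to lack oestrogen and progesterone receptors and E-cadherin and to express vimentin. ESR1 had 2 and 0 UMIs, PGR 0 and 1 and CDH1 2 and 0, while VIM was at 3271 and 1596 CPM (the per-million share of a library's UMIs). These genes were picked from longer lists. Of 12 epithelial markers listed, 5 reached 50 CPM in either library, among them KRT18 (418 and 468 CPM) and KRT19 (219 and 291 CPM). Of 10 mesenchymal markers 9 did so, and SPARC had 1 and 3 UMIs. Of 23 leukocyte and antigen-presenting cell markers only 5 were listed, and together they gave 40 UMIs at 0 mM and 61 at 2 mM (9.08 and 18.7 CPM). PTPRC, the pan-leukocyte CD45, had 0 and 1 UMIs, and CSF1R, a macrophage receptor, had 9 and 3. LYZ had 7 and 2, and FCGR3A 4 and 3. Fibroblast markers gave 12 and 16 UMIs in all, and the 1 endothelial marker listed gave 4 and 12. PTPRC was thus at or near 0 in both libraries, and CD14, a monocyte co-receptor, gave 20 of the 40 marker UMIs at 0 mM and 52 of 61 at 2 mM.

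All 8 members with enough counts to compare were higher in the 2 mM library, and 7 of them by at least 1.5-fold. Of the 4105 genes compared (at least 50 CPM in either library and 50 UMIs over both), 207 or 5.04% were at least 1.5-fold higher at 2 mM, 136 or 3.31% were at least 1.5-fold lower, and 52.6% were above 1. Nothing is read from that contrast, since the members were picked for being higher. With library sizes scaled by the trimmed mean of M values (TMM), 140 genes were higher and 223 lower. The members' median log2 ratio of 2 mM over 0 mM was 0.96, beside 0.02 over all compared genes. Together the 9 genes held 0.336% of all UMIs at 0 mM and 0.591% at 2 mM, a ratio of 1.76 (95% interval 1.72 to 1.80). Without CD74, the other 8 summed to 1489 CPM and 3174 CPM, a ratio of 2.13 (2.07 to 2.20). CPM levels are compared between doses and not between genes, and UMI ratios of paired chains are given only to set the doses side by side.

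CD74, the invariant chain, gave 8240 UMIs at 0 mM and 8921 at 2 mM. Its level was 1871 CPM (1831 to 1912) at 0 mM and 2733 CPM (2676 to 2790) at 2 mM, and the intervals did not overlap. The ratio was 1.46 (1.417 to 1.505), the smallest among the 9 genes and just under the 1.5-fold mark. CD74 thus differed less between the libraries than any chain it chaperones.

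HLA-DRA, the alpha chain shared by all DR molecules, was at 578 CPM (556 to 601) without metformin and 1216 CPM (1179 to 1255) with it, from 2547 and 3970 UMIs. Its ratio was 2.10 (2.00 to 2.21). HLA-DRB1, the main DR beta chain, had 1276 and 2359 UMIs, or 290 CPM (274 to 306) and 723 CPM (694 to 752). Its ratio of 2.49 (2.33 to 2.67) placed it 21st among the 4105 compared genes. HLA-DRB5, a further beta chain that only some haplotypes carry, had 83 and 240 UMIs, or 18.9 CPM (15.01 to 23.37) and 73.5 CPM (64.5 to 83.4). Its ratio of 3.90 (3.03 to 5.07) was the largest of the members and 6th of the compared genes.

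The division of reads between HLA-DRB1 and HLA-DRB5 is uncertain, because the transcripts are near copies. In the longest coding GENCODE transcripts they were 93.2% identical over 1183 aligned bases, and 58 of 1201 stretches of 60 bases of HLA-DRB5 (4.83%) occur exactly in HLA-DRB1. The stretch length was set here, since the read length is not given in the sources used here. Summed, the beta chains had a ratio of 2.58 (2.41 to 2.76), which does not depend on how reads were divided between them. HLA-DRB5 made up 6.11% (4.89 to 7.52) of the pair's UMIs at 0 mM and 9.23% (8.15 to 10.4) at 2 mM.

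HLA-DPA1, the DP alpha chain, had 1204 and 1600 UMIs, or 273 CPM (258 to 289) and 490.1 CPM (466 to 515). Its ratio was 1.79 (1.66 to 1.93). HLA-DPB1, its partner, had 683 and 1223 UMIs, or 155 CPM (144 to 167) and 375 CPM (354 to 396), a ratio of 2.42 (2.20 to 2.66). In both DR and DP molecules the beta chain differed more between libraries than the alpha chain. The UMI ratio of HLA-DRA to HLA-DRB1 was 2.00 at 0 mM and 1.68 at 2 mM, and that of HLA-DPA1 to HLA-DPB1 was 1.76 and 1.31.

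The DM genes encode the peptide-exchange catalyst, which stays in endosomes. HLA-DMA had 517 and 630 UMIs, or 117 CPM (108 to 128) and 193 CPM (178 to 209), a ratio of 1.64 (1.46 to 1.85). HLA-DMB had 218 and 288 UMIs, or 49.5 CPM (43.2 to 56.5) and 88.2 CPM (78.33 to 99.03), a ratio of 1.78 (1.49 to 2.13). The intervals of the DM chains overlapped each other, and their summed ratio was 1.68 (1.53 to 1.86), below the 2.27 (2.18 to 2.36) of the summed DR chains and the 2.02 (1.90 to 2.14) of the summed DP chains.

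CIITA, the co-activator, was scarce, with 29 UMIs at 0 mM and 52 at 2 mM, and was below the minimum for comparison. Its levels of 6.59 CPM (4.41 to 9.46) and 15.9 CPM (11.9 to 20.9) gave a ratio of 2.42 (1.51 to 3.95). In order of ratio, HLA-DRB5 stood above HLA-DRB1, HLA-DPB1 and HLA-DRA, followed by HLA-DPA1, HLA-DMB, HLA-DMA and CD74. Neighbours in this order had overlapping intervals and are not resolved at this depth, except HLA-DRB5 above HLA-DRB1 and HLA-DRA above HLA-DPA1. The wide interval of CIITA overlapped those of all other members but CD74.

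**Figure D1:**
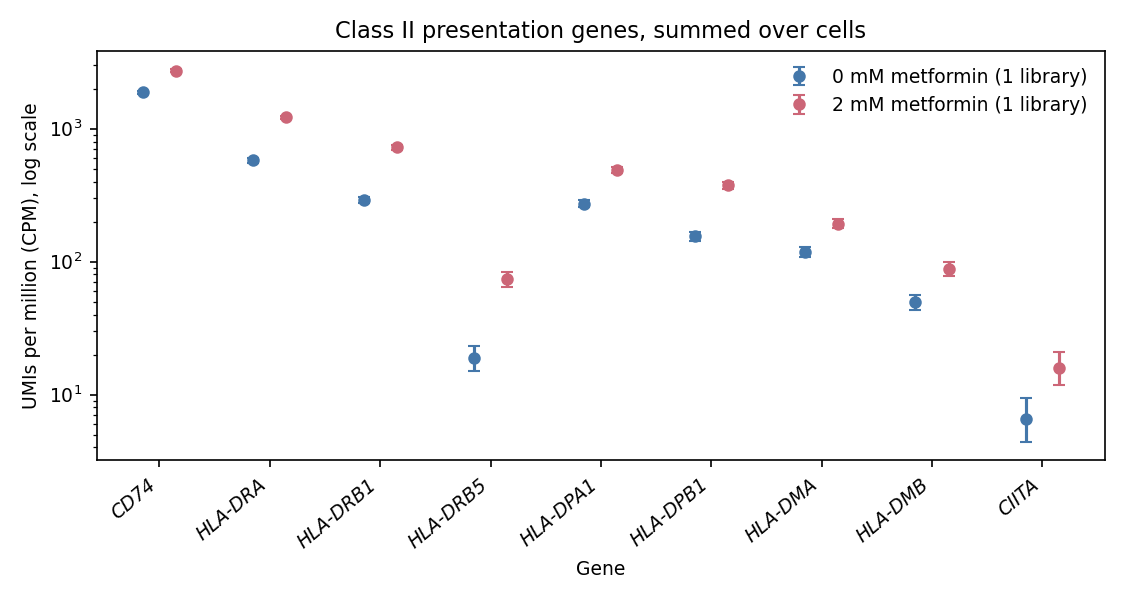
Level of each member in CPM (log axis) in the 0 mM and 2 mM libraries, with exact 95% Poisson intervals, 1 library per dose. Every member is higher at 2 mM, from CD74 at 1871 and 2733 CPM down to CIITA at 6.59 and 15.9 CPM.

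The class II genes outside the chosen set were at lower counts and none reached the minimum for comparison. HLA-DQB1, the DQ beta chain, had 32 and 113 UMIs, a ratio of 4.76 (3.19 to 7.29). HLA-DQB2 had 10 and 54 UMIs (7.28, 3.67 to 16.0), and HLA-DOA, a chain of the DM inhibitor HLA-DO, had 12 and 48 (5.395, 2.82 to 11.2). HLA-DQA1 had 15 and 31 UMIs (2.79, 1.46 to 5.56). HLA-DQA2 with 3 and 8 UMIs (3.597, 0.863 to 21.1) and HLA-DOB with 4 and 7 (2.36, 0.600 to 10.996) had intervals that include 1. The 6 genes summed to 76 UMIs (17.3 CPM) and 261 UMIs (80.0 CPM).

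The factors that bind the class II promoter boxes or join CIITA there showed smaller ratios. Of 11 listed, 5 could be compared, none was at least 1.5-fold higher, 1 was at least 1.5-fold lower, and the median log2 ratio was 0.44. RFXANK, a subunit of the X box complex, had a ratio of 1.37, SMARCA4, a chromatin remodelling ATPase, 1.39, CREBBP, an acetyltransferase, 1.36, and CREB1 1.08. NFYC, a subunit of the CCAAT-binding factor NF-Y, had a ratio of 0.555. RFX5, another subunit of the X box complex and named after its values were seen, was below the minimum with 182 and 111 UMIs (0.823, 0.644 to 1.05).

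Genes that carry the interferon gamma signal were mostly near 1. Of 5 compared, IFNGR1, the ligand-binding receptor chain, was at 63.8 CPM and 127 CPM, a ratio of 2.00 (1.71 to 2.33). IFNGR2 had a ratio of 0.948, the kinase JAK1 1.11 and the transcription factor IRF1 1.04. The compared targets of interferon gamma other than class II were lower, in 9 of 9 genes and by at least 1.5-fold in 3, with a median log2 ratio of -0.28. The intervals of CXCL11 (0.929, 0.800 to 1.08) and ICAM1 (0.966, 0.868 to 1.07) included 1. GBP3 and GBP4, guanylate-binding proteins, had ratios of 0.558 and 0.579, and WARS, a tRNA synthetase, 0.598. Under the minimum the list was not uniform. IDO1 had 16 and 45 UMIs (3.79, 2.10 to 7.19) and GBP5 37 and 45 (1.64, 1.04 to 2.61), while SOCS3 had 53 and 23 (0.585, 0.342 to 0.972). Targets of type I and III interferons gave 2 genes at least 1.5-fold higher and 1 lower of 25, and 17 of 25 below 1, with a median of -0.13. Within that list IFI27 had a ratio of 2.83 and RSAD2 2.28, while ISG15, a ubiquitin-like modifier, had 0.722. Most of the compared interferon targets were thus below 1. Nothing is read from setting the class II members beside them, since the members were picked for being higher.

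Genes of peptide processing and class II turnover were evenly divided. Of 12 compared, 6 were above 1 and 6 below, none by 1.5-fold, with a median log2 ratio of 0.10. IFI30, the lysosomal thiol reductase, had a ratio of 1.36, and the proteases CTSZ and CTSD had 1.36 and 0.726. Among ligands and partners of CD74, MIF, a cytokine that binds it, was at 56.3 CPM and 147 CPM (ratio 2.62, 2.24 to 3.06), its relative DDT had 1.11, and the co-receptor CD44 had 0.703, so 1 of 3 was at least 1.5-fold higher, and the median was 0.16. Class I and peptide loading genes had 1 of 15 at least 1.5-fold higher and none lower, with a median of 0.08. The gene above the mark was HLA-G, a non-classical class I chain, at 24.1 CPM and 53.3 CPM. Co-stimulation and adhesion genes had 3 compared, all below 1 (median -0.30), with CD40 at 0.812 and CD58 at 0.750.

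Lists outside antigen presentation also differed between the libraries. All 11 compared inflammatory secreted genes were above 1 and 6 at least 1.5-fold higher (median 0.66), led by LCN2, an iron-siderophore carrier, with a ratio of 8.17. All 43 compared G2/M genes were below 1 and 12 at least 1.5-fold lower (median -0.44). S phase genes gave 1 of 19 at least 1.5-fold lower (median -0.08), hypoxia targets 3 of 11 higher (median 0.11), epithelial genes none of 5 past 1.5-fold (median 0.09, and the direction of KRT7 and CLDN4 turns with TMM scaling), and mesenchymal genes 1 higher and 3 lower of 9 (median -0.28). The part of cell cycle, depth and inflammatory genes in the class II difference was not tested.

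More cells held class II transcripts at 2 mM when every cell was read to the same depth. After thinning to 1000 UMIs (944 and 800 cells, with 56 and 191 shallower cells left out), CD74 was seen in 74.8% (71.9 to 77.5) of cells at 0 mM and 84.1% (81.4 to 86.6) at 2 mM. HLA-DRA was seen in 36.2% (33.2 to 39.4) and 59.6% (56.1 to 63.0), a difference of 23.4 percentage points (16.7 to 29.9). HLA-DRB1 was seen in 21.0% and 42.9% of cells, HLA-DRB5 in 2.01% and 7.75%, HLA-DPA1 in 20.6% and 35.1%, and HLA-DPB1 in 12.3% and 29.9%. For these 6 genes the interval of the difference lay above 0.

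The DM genes and CIITA had smaller differences, whose intervals included 0 at this depth. HLA-DMA was seen in 12.1% and 16.1% of thinned cells (difference 4.05 points, -0.684 to 8.79), HLA-DMB in 6.14% and 9.25% (3.11, -0.538 to 6.78) and CIITA in 0.424% and 1.63% (1.201, -0.213 to 2.65). Thinned to 2000 UMIs, which leaves 701 and 588 cells, the differences were 9.78 points (2.88 to 16.6) for HLA-DMA, 7.02 (1.61 to 12.4) for HLA-DMB and 2.66 (0.502 to 4.84) for CIITA, with intervals above 0. A transcript of any member was seen in 85.5% and 93.6% of thinned cells, and of any member but CD74 in 61.5% and 80.9%. Without thinning, the deeper 0 mM cells had CD74 in 92.5% and the 2 mM cells in 90.4%, HLA-DRA in 64.2% and 75.0%, and HLA-DRB1 in 44.6% and 63.7%. The unthinned CD74 shares thus ran against its CPM, and no order is read from them. A line of 1 cell type has no population that should lack these genes, so the share that free RNA gives could not be measured, and its part was not tested.

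Cells with many CD74 transcripts were more frequent at 2 mM. Of thinned cells, 238 of 944 at 0 mM and 127 of 800 at 2 mM had no CD74 UMI, 249 and 149 had 1, 297 and 243 had 2 to 3, 155 and 256 had 4 to 9, and 5 and 25 had 10 or more. The share with 10 or more was 0.530% and 3.13%. For HLA-DRA, 602 and 323 cells had none, and 18 and 81 had 4 to 9. Counts of the members other than CD74 reached 10 or more in 4 cells at 0 mM and 59 at 2 mM.

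**Figure D2:**
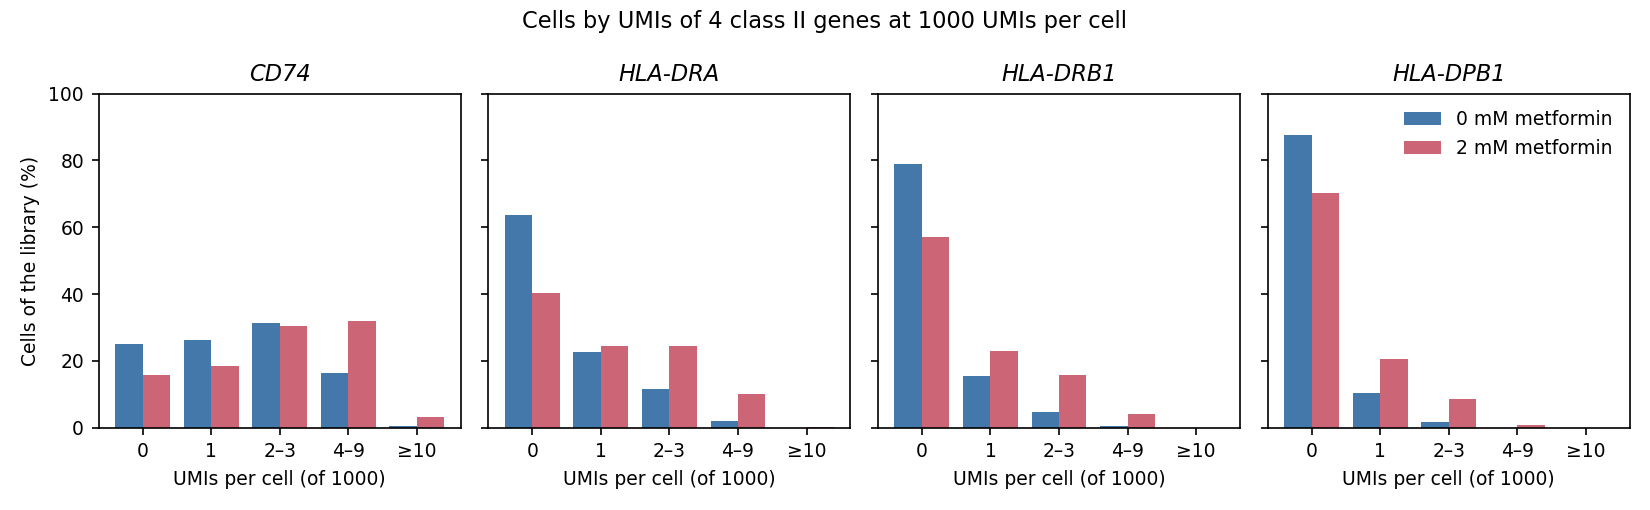
Share of cells by number of UMIs after thinning each cell to 1000 UMIs, in 944 cells at 0 mM and 800 cells at 2 mM. At 2 mM fewer cells hold no transcript of CD74, HLA-DRA or HLA-DRB1 and more hold 4 or more.

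The transcripts were spread unevenly over cells in both libraries. CD74 was missing in 25.2% of thinned cells at 0 mM and 15.9% at 2 mM, where an even spread of the same UMIs would leave 14.4% and 4.58%. For HLA-DRA the shares without a transcript were 63.8% and 40.4%, beside 55.5% and 24.9% under an even spread. The variance over the mean of thinned UMIs was 1.93 and 2.56 for CD74, 1.69 and 2.19 for HLA-DRA and 1.55 and 2.02 for HLA-DRB1, beside a median of 1.05 over the compared genes in each library. HLA-DMB, at a lower count, had 1.03 and 1.09, close to that median. The 10% of thinned cells highest in each gene held 32.3% of thinned CD74 UMIs at 0 mM and 29.6% at 2 mM, and 49.8% and 39.0% of HLA-DRA UMIs. Without the 10 cells richest in class II UMIs in each library, the members' median log2 ratio was 0.98, so the difference was as large without them.

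Members were found together in the same cells. Across cells, Pearson's r of log levels between CD74 and HLA-DRA was 0.41 at 0 mM (1000 cells) and 0.50 at 2 mM (991 cells), and between HLA-DRA and HLA-DRB1 0.48 and 0.51. The r of CD74 was 0.39 and 0.45 with HLA-DPA1, 0.37 and 0.42 with HLA-DRB1, 0.31 and 0.39 with HLA-DPB1, 0.26 and 0.31 with HLA-DMA, and 0.20 and 0.27 with HLA-DMB. Over 3213 genes the r with CD74 had a median of 0.02 and 0.03, and a 95th percentile of 0.10 and 0.12. Cells of 1 library share their depth and preparation, and these values describe the libraries. The lower values come with fewer counts, and CIITA, the scarcest, had an r between 0.01 and 0.17 with other members at 0 mM and between 0.02 and 0.11 at 2 mM.

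**Figure D3:**
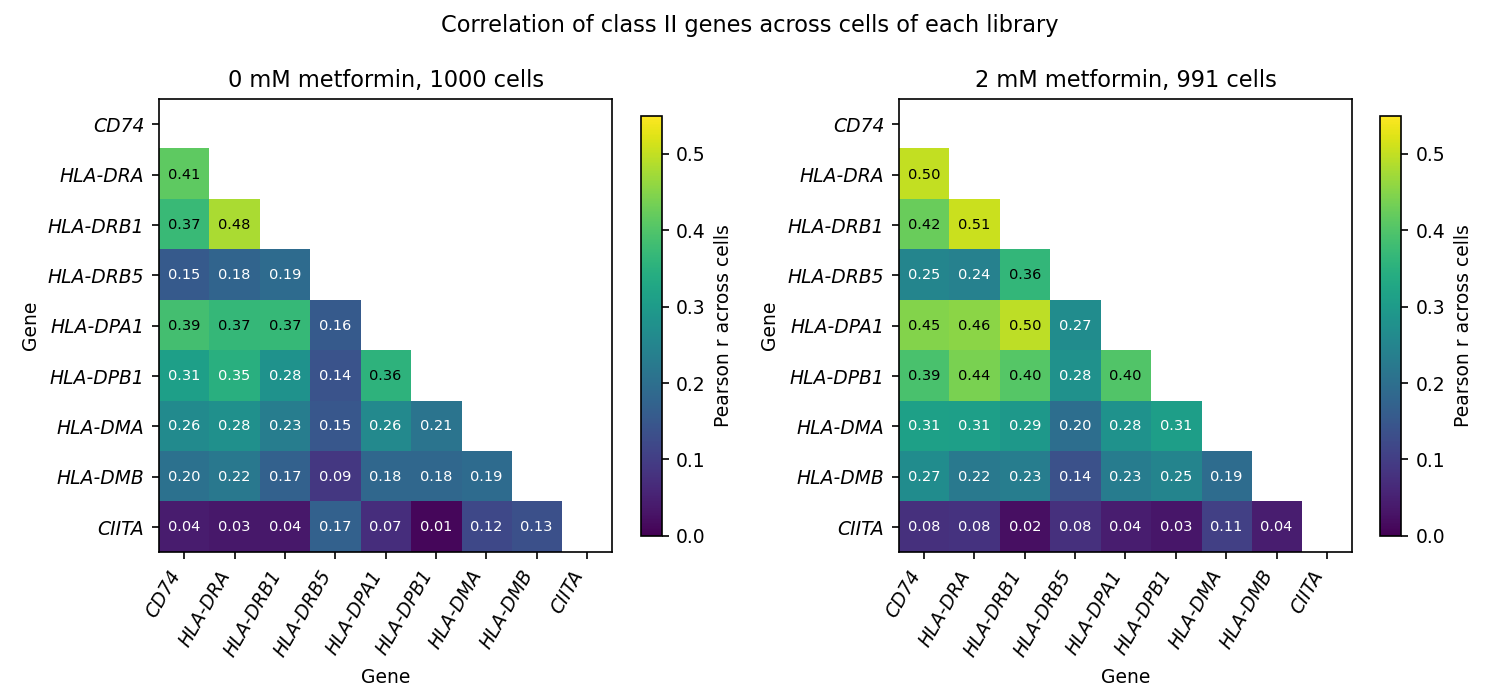
Pearson's r across cells between pairs of members, computed on log levels in the 0 mM and the 2 mM library. The pairs among CD74, HLA-DRA, HLA-DRB1, HLA-DPA1 and HLA-DPB1 include the highest (HLA-DRA with HLA-DRB1, 0.48 and 0.51). HLA-DRB5 pairs are lower, and CIITA pairs lie between 0.01 and 0.17.

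The 5 genes most like CD74 across cells were HLA-DRA, HLA-DPA1, HLA-DRB1, HLA-DPB1 and HLA-DMA, in this order in both libraries. The genes next in likeness included the iron store FTH1 (0.26 and 0.30), the class I genes HLA-B (0.26 and 0.25) and HLA-C (0.21 and 0.26), and B2M (0.23 and 0.28), the light chain of class I. LGALS3BP (0.22 and 0.20), GRN (0.17 and 0.23), CD63 (0.17 and 0.23) and CTSD (0.23 and 0.16), which encode secreted or lysosomal proteins, were also among them. Among the 5 genes lowest by the larger of their r in the libraries were CENPF (-0.11 and -0.21) and MKI67 (-0.10 and -0.11), both expressed in dividing cells, and the mitochondrial MT-RNR2 (-0.10 and -0.20). After thinning, CD74 and HLA-DRA had an r of 0.26 and 0.40, and HLA-DRA remained the gene most like CD74 in both libraries.

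Seeing HLA-DRA in a cell went with seeing its partners. Of thinned cells with an HLA-DRA UMI, 34.5% (118 of 342) at 0 mM and 53.9% (257 of 477) at 2 mM also had HLA-DRB1, beside 13.3% (80 of 602) and 26.6% (86 of 323) of cells without one. HLA-DPA1 was seen in 28.7% of cells with HLA-DRA and 15.9% without at 0 mM, and in 44.7% and 21.1% at 2 mM. CD74 was seen in 84.5% and 69.3% at 0 mM and in 91.2% and 73.7% at 2 mM. Among cells without an HLA-DRA UMI, the share with HLA-DRB1 was higher at 2 mM with intervals that did not overlap, those with HLA-DPA1 had overlapping intervals (13.1 to 19.1 and 16.7 to 25.9), and HLA-DMA was seen in 9.80% at 0 mM and 9.29% at 2 mM.

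Cells grouped by their CD74 count after thinning showed the other members in steps. Levels in these groups use all UMIs of the cells, so the group with a thinned count of 0 still held CD74, at 693 CPM at 0 mM and 917 CPM at 2 mM. At 0 mM, HLA-DRA was at 218 CPM in cells with a thinned count of 0, 369 CPM with 1 UMI, 746 CPM with 2 to 3 and 1160 CPM with 4 or more. At 2 mM it was at 359, 684, 1168 and 2126 CPM in the same groups. HLA-DRA was higher at 2 mM in each of the 4 groups. The groups are not matched in CD74, which was itself higher at 2 mM in each, at 1258 and 1498 CPM with 1 UMI, 2334 and 2448 CPM with 2 to 3, and 3850 and 4889 CPM with 4 or more. HLA-DRB1 went from 91.1 to 583 CPM at 0 mM and from 233 to 1284 CPM at 2 mM between the lowest and highest group. The highest group over the lowest gave 5.79 and 4.98 for HLA-DPA1, 5.56 and 5.14 for HLA-DPB1, 3.57 and 3.51 for HLA-DMA, and 5.80 and 4.48 for HLA-DMB. CIITA had 7, 7, 6 and 9 UMIs over the 4 groups at 0 mM and 4, 8, 15 and 25 at 2 mM.

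**Figure D4:**
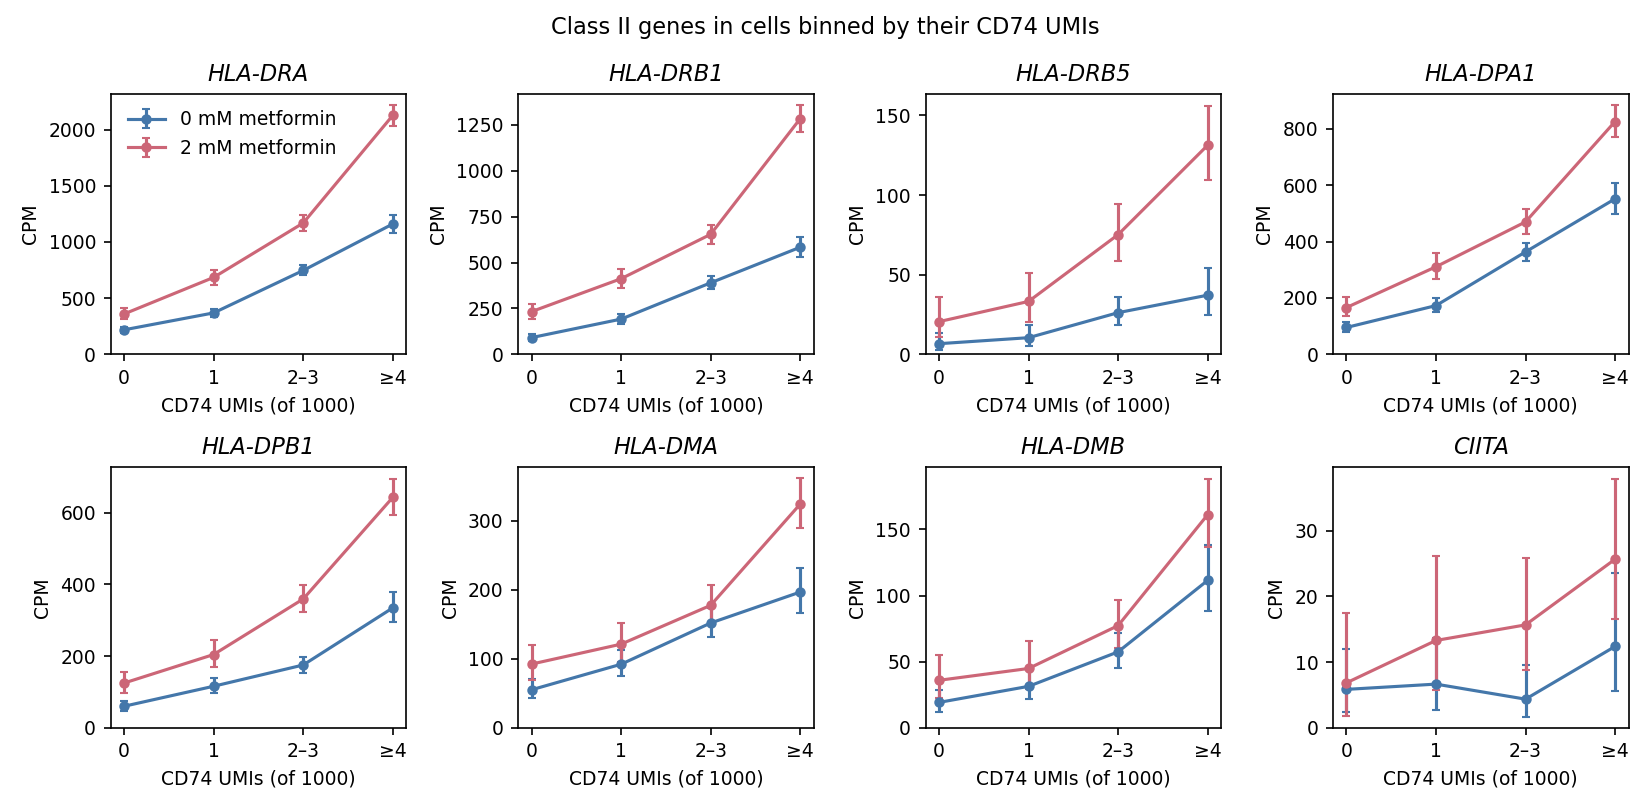
Levels of the members other than CD74 in CPM (linear axis) in cells grouped by thinned CD74 count, in the 0 mM and the 2 mM library. HLA-DRA steps from 218 to 1160 CPM at 0 mM and from 359 to 2126 CPM at 2 mM.

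Other gene groups also differed along the CD74 count. The summed G2/M genes were at 10832 CPM in cells with a thinned CD74 count of 0 and 5351 CPM with 4 or more at 0 mM, and at 7660 and 4010 CPM at 2 mM. Class I genes were at 18875 and 24411 CPM, and at 20012 and 25113 CPM. Inflammatory secreted genes were at 2282 and 3756 CPM at 0 mM and 4437 and 7883 CPM at 2 mM. Type I and III interferon targets had no common direction, at 8784 and 9654 CPM at 0 mM and 9673 and 6798 CPM at 2 mM. Leukocyte markers were at 5.01 and 8.26 CPM at 0 mM and 18.8 and 17.4 CPM at 2 mM.

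In each of 3 ranges of interferon target UMIs, CD74 and the sum of the other members were higher at 2 mM. In thinned cells with 0 to 2 UMIs of type I and III interferon targets (218 and 217 cells), members other than CD74 were at 1240 and 2927 CPM, a ratio of 2.36 (2.21 to 2.52). With 3 to 9 such UMIs (415 and 422 cells) the ratio was 2.18 (2.09 to 2.28), and with 10 or more (311 and 161 cells) it was 1.76 (1.65 to 1.87). CD74 gave 1.62 (1.52 to 1.73), 1.48 (1.42 to 1.55) and 1.22 (1.15 to 1.30) in the same groups. The ratios were thus lower in cells with more interferon target transcripts, for CD74 and for the sum of the other members. Single members did not all step down. From the lowest to the highest range, HLA-DRB1 gave 2.79, 2.79 and 1.76, HLA-DPA1 1.78, 1.85 and 1.64, and HLA-DPB1 2.56, 2.24 and 2.30. CIITA had 6 and 13 UMIs in the lowest group, 12 and 34 in the middle group and 11 and 5 in the highest. Its ratio in the highest group was 0.891 (0.243 to 2.78). These groups are ranges of a score, with 199 and 221 cells at 2 to 3 UMIs next to the lower boundary and 54 and 21 cells at 9 to 10 next to the upper. Cells in the highest group made up 32.9% of thinned cells at 0 mM and 20.1% at 2 mM. The ranges do not match cells between doses, and the part of interferon state in the class II difference was not tested.

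Members were higher at 2 mM in cells of both cell cycle ranges. Cells with 3 or more UMIs of the S phase list or of the G2/M list (597 and 433 cells) had members other than CD74 at 1356 and 2727 CPM, a ratio of 2.01 (1.93 to 2.10). The other cells (347 and 367) had 1783 and 3868 CPM, a ratio of 2.17 (2.07 to 2.28). These are ranges of a score too, with 323 and 274 cells whose higher list count was 2 or 3, next to the boundary. Class II levels were lower in the cycling range than outside it in both libraries.

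Clusters were built from both libraries with every class II gene and CD74 left out, so that these genes did not decide membership. Of 7 clusters, 4 were named from their markers, an interferon-like (314 and 190 cells), an inflammatory-secreted-like (158 and 219), an S-phase-like (107 and 102) and a G2/M-like cluster (93 and 82). A cluster led by CPVL and IFNGR1 (89 and 356 cells) stayed unnamed, and since most of its cells came from the 2 mM library it may reflect that library. HLA-DRA, HLA-DRB1, HLA-DRB5 and HLA-DPB1 were at least 1.5-fold higher at 2 mM, with an interval above 1, in 5 of these 5 clusters. CD74 was above 1 in 5 of 5, with an interval above 1 in 4, and at least 1.5-fold higher only in the inflammatory-secreted-like cluster. The share of all genes past 1.5-fold was not computed within clusters, so these counts stand without a background and nothing is read from them.

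The inflammatory-secreted-like cluster showed the largest ratio of members other than CD74 of the 5, at 3.399 (3.18 to 3.64). There HLA-DRA was at 501.1 CPM and 1851 CPM (3.69, 3.30 to 4.14), HLA-DRB1 at 234 and 1179 CPM (5.05, 4.30 to 5.95) and CD74 at 2154 and 3613 CPM (1.68, 1.58 to 1.78). HLA-DRB5 in this cluster rested on 3 UMIs at 0 mM and 68 at 2 mM (22.1, 7.25 to 110). In the interferon-like cluster CD74 was at 1996 and 2065 CPM, a ratio of 1.03 (0.970 to 1.10), and members other than CD74 had 1.62. That cluster had 12 and 2 UMIs of CIITA (0.341, 0.0371 to 1.53), whereas the CPVL-led cluster had 1 and 23. The ratio of members other than CD74 was 1.81 in the CPVL-led, 1.64 in the S-phase-like and 1.98 in the G2/M-like cluster. In the G2/M-like cluster HLA-DRA was at 399 and 686 CPM, its lowest level among the 5 clusters in each library.

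**Figure D5:**
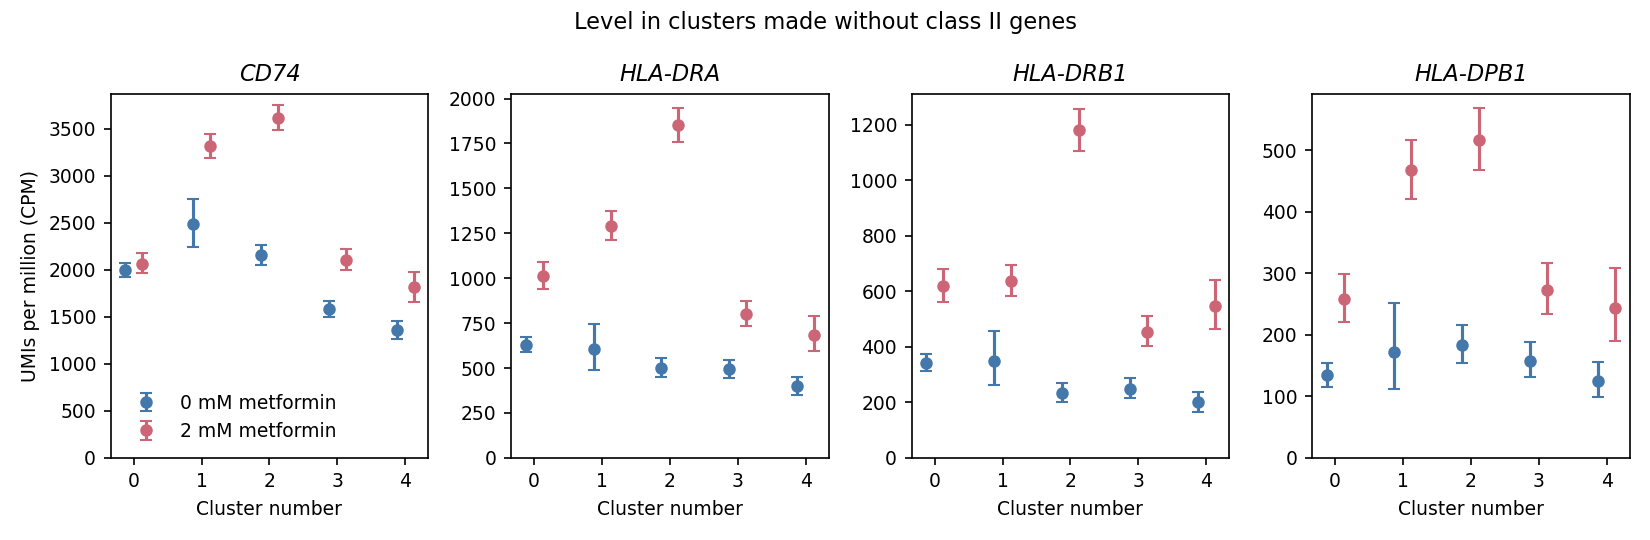
Levels of CD74, HLA-DRA, HLA-DRB1 and HLA-DPB1 in CPM (linear axis) in 5 clusters made without class II genes. The 0 mM and 2 mM libraries are shown with exact 95% Poisson intervals. HLA-DRA is higher at 2 mM in all 5, and CD74 is nearly level in the interferon-like cluster (1996 and 2065 CPM).

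The DM genes and HLA-DPA1 had an interval above 1 in fewer clusters than HLA-DRA, HLA-DRB1, HLA-DRB5 and HLA-DPB1. HLA-DPA1 had a ratio of 2.57 in the inflammatory-secreted-like cluster and 1.14 (0.868 to 1.51) in the CPVL-led cluster, with an interval above 1 in 4 of 5. HLA-DMA had 2.02 in the inflammatory-secreted-like and 1.19 (0.901 to 1.57) in the interferon-like cluster, with an interval above 1 in 3 of 5. HLA-DMB ranged from 1.07 to 2.21, with an interval above 1 in 1 of 5. Whether ratios differ between clusters was not tested, since each cluster has 1 library per dose.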

How the data were processed

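Single-cell RNA libraries made on beads, with amplification on the bead and Nextera XT per the labels' protocols, were read from the authors' deposited table of UMI counts per gene and cell. Per the submitters' processing notes, bcl2fastq, STAR 2.5.0a and hg19 were used; for annotation, strand and UMI collapsing, the setting is not given in the sources used here. The table held 19826 genes and 2000 barcodes. The minimum per cell was 500 UMIs and 300 genes. Depth was 4403045 and 3264343 UMIs, so 3 UMIs were worth 0.681 and 0.919 CPM.

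Counts were summed per library and given as CPM with exact 95% Poisson intervals. Ratios of 2 mM over 0 mM have exact conditional (Clopper-Pearson) intervals and shares of cells exact binomial ones. Intervals of differences between shares join both bounds. No test was run, since each dose had 1 library. A gene was compared when it reached 50 CPM at either dose and 50 UMIs over both, with a mark at 1.5-fold. Cells were thinned without replacement to 1000 UMIs. Pearson's r used the logarithm of depth-scaled UMIs plus 1 and, for likeness, genes with at least 200 UMIs in each library. Clusters came from scanpy 1.11.5 and leidenalg 0.10.2 (2000 variable genes without any class II gene, 20 components, 15 neighbours, resolution 0.5), and a name needed at least 3 listed markers among 50 leading genes. No doublet caller was run. edgeR 4.0.16 gave TMM factors. Scripts ran in Python 3.11.15 with scipy 1.17.1.

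The members and all lists were chosen with earlier results of these data known. The lists are other class II genes, class II promoter factors, interferon gamma signalling and targets, type I and III interferon targets, peptide processing and turnover, invariant chain ligands, class I, co-stimulation, inflammatory secreted genes, cell cycle, hypoxia, and leukocyte, fibroblast, endothelial, epithelial and mesenchymal markers. Named are all members, up to 3 compared genes with the highest and 3 with the lowest ratio of a list, the 15 genes most and 5 least like CD74 and the 5 most like HLA-DRA; markers, genes under the minimum and genes that lead clusters were named after their values were seen. Alternatives changed the cells kept, scaling, minimum, thinning depth, merged barcodes and the DRB1 and DRB5 split. Some genes that this rule names are not reported here.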

Additional observations from a re-analysis of the deposited data

How the results depend on the processing

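The log2 ratio of every member kept its sign under all settings of cells kept, scaling, minimum and merged barcodes that were run. It ranged from 0.46 to 0.60 for CD74, 0.99 to 1.14 for HLA-DRA, 1.23 to 1.501 for HLA-DRB1, 1.37 (summed with HLA-DRB1) to 2.07 for HLA-DRB5, 0.76 to 0.95 for HLA-DPA1, 1.19 to 1.39 for HLA-DPB1, 0.62 to 0.73 for HLA-DMA, 0.75 to 0.95 for HLA-DMB and 0.85 to 1.37 for CIITA. The members' median ranged from 0.87 to 1.07. CD74 passed 1.5-fold when cells were weighted equally and when the 5% deepest barcodes were left out (0.60 in both). With no CPM minimum, 13040 genes with at least 10 UMIs over both libraries were compared. Of these, 1971 were higher by 1.5-fold or more and 1183 lower, beside 207 and 136 of 4105 genes with the minimum. Lower genes numbered 223 with TMM factors and 207 with median-of-ratios factors. The difference in the share of cells with any member, 8.14 points, was 12.9 at 500 UMIs, 3.16 at 2000 UMIs, -0.328 unthinned and 16.2 for at least 2 UMIs. Without CD74 it was 6.91 unthinned and 27.6 for at least 2 UMIs, beside 19.3. At 1000 UMIs the interval of the HLA-DMA difference lay above 0 with merged barcodes (7.16 points, 2.17 to 12.1), at most 10% mitochondrial UMIs (5.85, 1.10 to 10.6) and without the 5% deepest barcodes (6.52, 1.43 to 11.6). That of HLA-DMB did so under the latter pair of settings (4.09, 0.556 to 7.63; 5.84, 2.30 to 9.39) and that of CIITA with merged barcodes (1.96, 0.305 to 3.62). Each of these settings also drew the thinned UMIs anew, and the intervals do not cover that draw. Its part in these shifts was not tested. The CD74 share turned to -2.09 points unthinned, where 0 mM cells are deeper, and the CIITA share to -0.0973 at 500 UMIs, near the level of 1 UMI. The r of CD74 with HLA-DRA at 0 mM was 0.26 on thinned counts, beside 0.41. Except where stated, the cause was not tested. Depth limits CIITA, HLA-DRB5 and HLA-DMB within clusters. No paired analysis was possible because each dose had 1 library.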

Other observations

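The remaining 2 clusters were too uneven between the libraries to be compared. A cluster led by MGP and CA12 held 134 cells at 0 mM and 7 at 2 mM. Its 0 mM cells had CD74 at 2124 CPM and HLA-DRA at 911 CPM, the latter the highest HLA-DRA level of any cluster at 0 mM. Its 7 cells at 2 mM had HLA-DRA at 1313 CPM from 31 UMIs. A shallow cluster led by MTRNR2L genes and MT-RNR2 held 105 and 35 cells, with a median of 1043 and 698 UMIs and 15.1% mitochondrial UMIs. CD74 was at 1348 CPM and 716 CPM there, from 168 and 19 UMIs (ratio 0.531, 0.312 to 0.856), the only cluster in which it was lower at 2 mM, while members other than CD74 had a ratio of 1.59.

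CD74 and HLA-DRA varied together within clusters as well as across all cells. Their r was between 0.29 and 0.66 in 6 clusters at 0 mM and 0.13 in the shallow cluster, and between 0.44 and 0.63 in the 5 compared clusters at 2 mM. In cells thinned to 1000 UMIs, HLA-DRA was seen in 26.1% of G2/M-like cells at 0 mM, the lowest share of the 5 compared clusters, and in 69.8% of inflammatory-secreted-like cells at 2 mM, the highest.

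HLA-DPA1 and HLA-DPB1, the partner chains of DP, were also found together, with an r of 0.36 at 0 mM and 0.40 at 2 mM. Of thinned cells with HLA-DPA1, 22.7% at 0 mM and 40.9% at 2 mM also had HLA-DPB1, beside 9.60% and 23.9% of cells without it. The DM chains, which also pair, had an r of 0.19 in both libraries. The r of HLA-DRB1 with HLA-DRB5 was 0.19 at 0 mM and 0.36 at 2 mM, and reads shared between their near-identical transcripts can enter it.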
